A study of Mus musculus with 42 samples.

Results

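The binding of induced Hox transcription factors and their cofactors was examined at 8 genes that are used to identify spinal motor neurons: Isl1, Isl2, Lhx1, Lhx3, Lhx4, Mnx1, Lmo4 and Ldb1. A binding event was taken for a gene when its position lay in the annotated gene span or within 50 kb on either side. The 8 genes stand among 21911 protein-coding genes. Their windows covered 924 kb, 0.0339% of the assembled chromosomes, and held 893 of 1087512 events over 21 event lists. Events within 100 bp of their neighbour were merged, which gave 247 sites in the 8 windows out of 377270 in the genome. No expression was measured here, so whether the genes were expressed in these cells was not tested.

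Of the genes, 6 encode homeodomain proteins, and Lmo4 and Ldb1 encode partners of LIM proteins. Isl1 and Isl2 and the LIM homeodomain genes Lhx3 and Lhx4 are switched on as motor neurons form, and the ISL1 and LHX3 proteins are joined by the adaptor LDB1 (NLI) into a complex that activates motor neuron genes. Lhx1 marks motor neurons of the lateral part of the lateral motor column, which grow towards dorsal limb muscle, and also several interneuron classes. Mnx1 (HB9) is a homeobox gene that holds back interneuron programmes in motor neurons, and Lmo4 encodes a LIM-only protein that competes for LDB1. Hox proteins give these neurons their position along the body axis. Central factors such as HOXC6 and HOXC8 act at brachial levels, HOX9 factors at thoracic levels and HOXC10 at lumbar levels.

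The chromatin immunoprecipitation (ChIP-seq) samples came from mouse embryonic stem cells grown as embryoid bodies (EBs). For the patterned cells, retinoic acid (RA) and smoothened agonist (SAG) were given from day 0, which directs cells to a motor neuron fate, and doxycycline (Dox) was added on day 2 to switch on a single inserted Hox gene. Each line carried 1 tagged transgene at the HPRT locus, and iHoxc9, for example, stands for cells that make HOXC9 under Dox. Day 3 groups (24 h of Dox) were the central factors HOXC6 and HOXC8, the HOX9 factors HOXA9, HOXC9 and HOXD9, then HOXC10, and HOXC13 from human cDNA. A further 4 groups at day 3 were chimeras. Those named HOXC13:C10.1 and HOXC13:C10.2 joined an N-terminal HOXC13 part to a homeodomain and tail from HOXC10. HOXC10:C13.1 joined the parts the other way round, as did HOXC10:C13.2. In the second form of each pair, a conserved stretch upstream of the homeodomain also came from the donor of the homeodomain. Day 4 groups (48 h of Dox) were HOXC6, HOXC9 and HOXC10. HOXC6 and HOXC9 were also induced for 12 h in EBs whose labels name neither RA nor SAG. The cofactor MEIS was precipitated at day 3 from V5-tagged lines of HOXC6, HOXC9 and HOXC10. The cofactor PBX was precipitated at day 4 from the Flag lines iHoxc9 and iHoxc10.

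Each list pools its libraries: 14 lists pool 2, HOXC10 at day 3 pools 3, HOXC10 at day 4 pools 4, and the 5 cofactor lists rest on 1 library each. The lists hold pooled values, so no test of a difference was possible, and intervals below cover counting error only. The 40 libraries held 5.04 to 32.9 M reads (M, 1e6 reads), of which a fraction of 0.008 to 0.527 was assigned to binding. The lists held 848 to 128388 events, and shares between lists, like positions given as percent of a list, move with their lengths. In the HOXC10 day 3 list, 1 library had 5.04 M reads with a signal fraction of 0.017, against 0.041 and 0.161 in the other libraries, and the list could not be rebuilt without it. Flag antibodies served most HOX libraries, but 1 library each of HOXA9, HOXD9 and HOXC13 came from an HA-tagged line with an HA antibody, and 1 of the HOXC10 libraries at day 3 came from a V5 line with a V5 antibody. The lists of 1 stage were called against common control libraries, of 20.3 or 20.6 M reads at day 3, 4.72 M at day 4 and 10.5 M in EBs.

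The sequences below are those of the site with events in the most lists for 7 of the genes, and of the strongest site of HOXC6, HOXC9, HOXC10 and HOXC13 at day 3. Each runs 50 bases to either side of the median event position, on the plus strand of GRCm38, the assembly of build mm10, and was read from the RefSeq copy of the genome. Sites are named by the gene and the distance in kb from its outermost start, with plus for downstream. Capitals mark TAAT, the core preferred by central Hox proteins, TTTAT, preferred by posterior ones, and TTTAC, found for HOXC13, on either strand, and neighbouring matches can run together. The Lhx3 +17.7 kb site (chr2:26190552-26190652, intergenic) was the strongest of HOXC6, and the Lhx3 +32.9 kb site (chr2:26175381-26175481, intergenic) was the strongest of HOXC9 and HOXC10.
Lhx3 +17.7 kb: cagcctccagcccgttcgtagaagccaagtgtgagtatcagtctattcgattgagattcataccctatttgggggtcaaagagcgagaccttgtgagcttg
Lhx3 +32.9 kb: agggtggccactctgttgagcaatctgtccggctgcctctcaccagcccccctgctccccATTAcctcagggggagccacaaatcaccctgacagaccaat
The Lhx4 +96.6 kb site (chr1:155655044-155655144) lay in the gene Acbd6, and the Mnx1 -8.7 kb (chr5:29487091-29487191) and Lhx1 -16.5 kb (chr11:84542018-84542118) sites were intergenic.
Lhx4 +96.6 kb: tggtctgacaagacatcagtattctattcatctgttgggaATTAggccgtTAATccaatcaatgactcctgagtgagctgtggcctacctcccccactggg
Mnx1 -8.7 kb: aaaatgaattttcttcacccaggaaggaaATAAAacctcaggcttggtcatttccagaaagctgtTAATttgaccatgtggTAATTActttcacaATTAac
Lhx1 -16.5 kb: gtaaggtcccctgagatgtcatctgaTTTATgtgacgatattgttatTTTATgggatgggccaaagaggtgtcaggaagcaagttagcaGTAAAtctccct
The Lmo4 -5.7 kb site (chr3:144210892-144210992) was that of most lists at Lmo4, and Lmo4 +32.0 kb (chr3:144173218-144173318) was the strongest of HOXC13. Both were intergenic.
Lmo4 -5.7 kb: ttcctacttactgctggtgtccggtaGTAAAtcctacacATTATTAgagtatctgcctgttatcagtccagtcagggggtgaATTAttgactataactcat
Lmo4 +32.0 kb: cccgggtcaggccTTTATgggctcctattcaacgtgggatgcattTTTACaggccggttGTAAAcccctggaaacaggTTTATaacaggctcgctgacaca
The Isl1 +14.9 kb site (chr13:116294787-116294887) was intergenic and the Isl2 +43.4 kb site (chr9:55582009-55582109) lay in the gene Scaper.
Isl1 +14.9 kb: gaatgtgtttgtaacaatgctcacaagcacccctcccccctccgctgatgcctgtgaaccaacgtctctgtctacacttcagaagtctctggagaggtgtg
Isl2 +43.4 kb: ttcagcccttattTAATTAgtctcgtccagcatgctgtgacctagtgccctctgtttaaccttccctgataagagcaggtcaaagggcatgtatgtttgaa
The Lhx3 +17.7 kb sequence held none of these letters, and the Lhx3 +32.9 kb sequence held 1 TAAT and 1 copy of TGACAG, the MEIS hexamer, left in lower case. The Lhx1 -16.5 kb sequence held 2 copies of TTTAT, of which 1 lay in TGATTTAT, the longer PBX-Hox motif that contains it, and 1 of TTTAC. The Mnx1 -8.7 kb sequence held 4 copies of TAAT and 1 of TTTAT. The Lmo4 +32.0 kb sequence, the HOXC13 site, held 2 copies of TTTAT and 2 of TTTAC and no TAAT. Over 132344 windows of the same length, taken every 20 kb of the genome, 52.7% held TAAT, 33.7% TTTAT, 19.0% TTTAC, 0.615% TGATTTAT and 6.38% TGACAG on either strand.

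Sites were dense around 7 of the 8 genes. Mnx1 had 43 sites, 40.8 per 100 kb of window, which was more than 99.4% of protein-coding genes. Lmo4 followed with 40 sites (34.3 per 100 kb, 98.8%), Lhx4 with 49 (31.9 per 100 kb, 98.3%), Lhx3 with 30 (27.8 per 100 kb, 96.6%) and Isl1 with 30 (26.9 per 100 kb, 96.1%). Lhx1 had 24 sites, 22.4 per 100 kb, and Isl2 23, 21.4 per 100 kb, above 91.1% and 89.3% of genes. Ldb1, the broadly used adaptor, had 8 sites, 7.04 per 100 kb, below the median of 11.7 over all protein-coding genes.

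**Figure D1:**
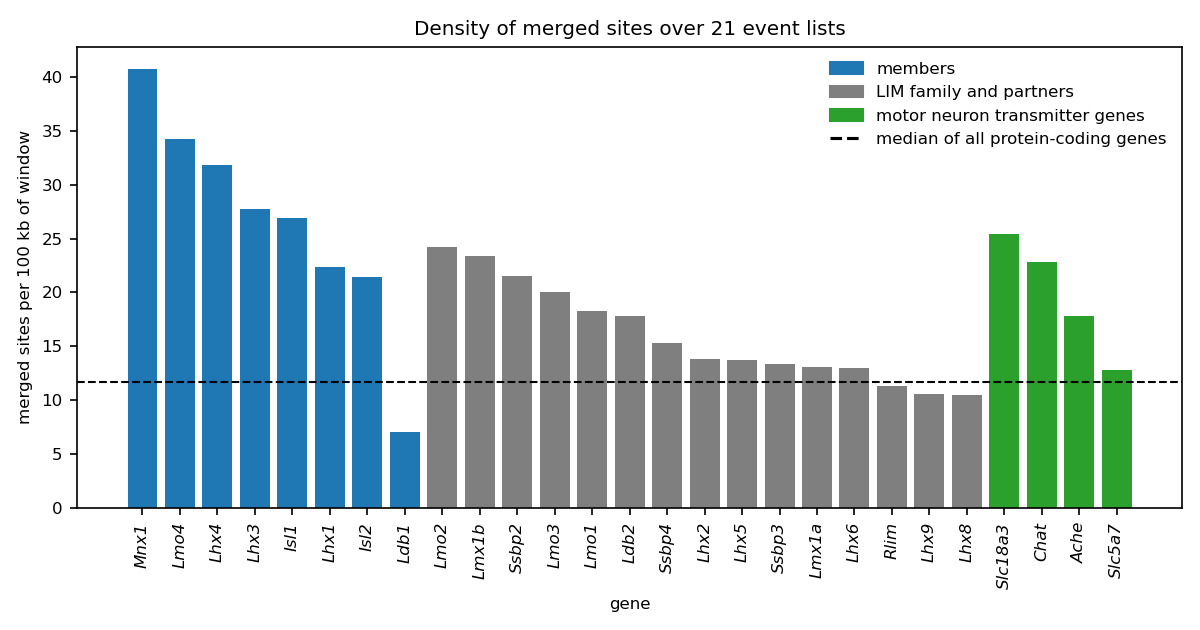
Bars give merged sites per 100 kb of gene window over all 21 event lists for the 8 genes (blue), other LIM genes and their partners (grey) and motor neuron transmitter genes (green), and the dashed line is the median of all protein-coding genes (11.7). Mnx1 is the tallest at 40.8 and Ldb1 the only 1 of the 8 genes under the line, at 7.04.

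Most sites lay outside the genes themselves. Of the 247 sites, 131 were intergenic, 61 lay in another gene, 25 in an intron of the member, 7 in a coding exon, 3 in a UTR and 20 within 1 kb of a start of the member. The nearest protein-coding start was the member's own for 205 sites, 83.0% (95% Wilson interval 77.8 to 87.2%). This share was all 30 sites at Isl1 and all 40 at Lmo4, whose windows touched no other protein-coding gene, but 14 of 24 at Lhx1, whose window holds part of Aatf, and 3 of 8 at Ldb1, whose window touches Armh3, Hps6, Pprc1 and Nolc1. The Isl2 window was taken up largely by its neighbours, with 18 of 23 sites inside Etfa or Scaper. At Lhx4, 24 of 49 sites lay in a neighbour and 14 in Lhx4 introns. Around Mnx1, 24 of 43 sites were upstream of the start and the median distance was 8.96 kb, the shortest of the 8 genes, against 52.9 kb at Lhx4.

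Among the 8 genes, sites used by many lists gathered at 5. Of the 247 sites, 111 occurred in 1 list and 26 in 10 or more lists. Those 26 comprised 8 at Lhx4, 6 at Lhx3, 6 at Mnx1, 4 at Lhx1 and 2 at Lmo4, and Isl1, Isl2 and Ldb1 had none. These counts have no genome share beside them and compare the genes only with one another. No site at Isl1 or Isl2 was in more than 7 lists, and none at Ldb1 in more than 3. The Lhx3 +17.7 kb site was the sole site of the 157 with a day 3 event of a full-length factor that occurred in all 7 of their lists, 0.637% against 1.60% of 198723 such sites in the genome.

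**Figure D2:**
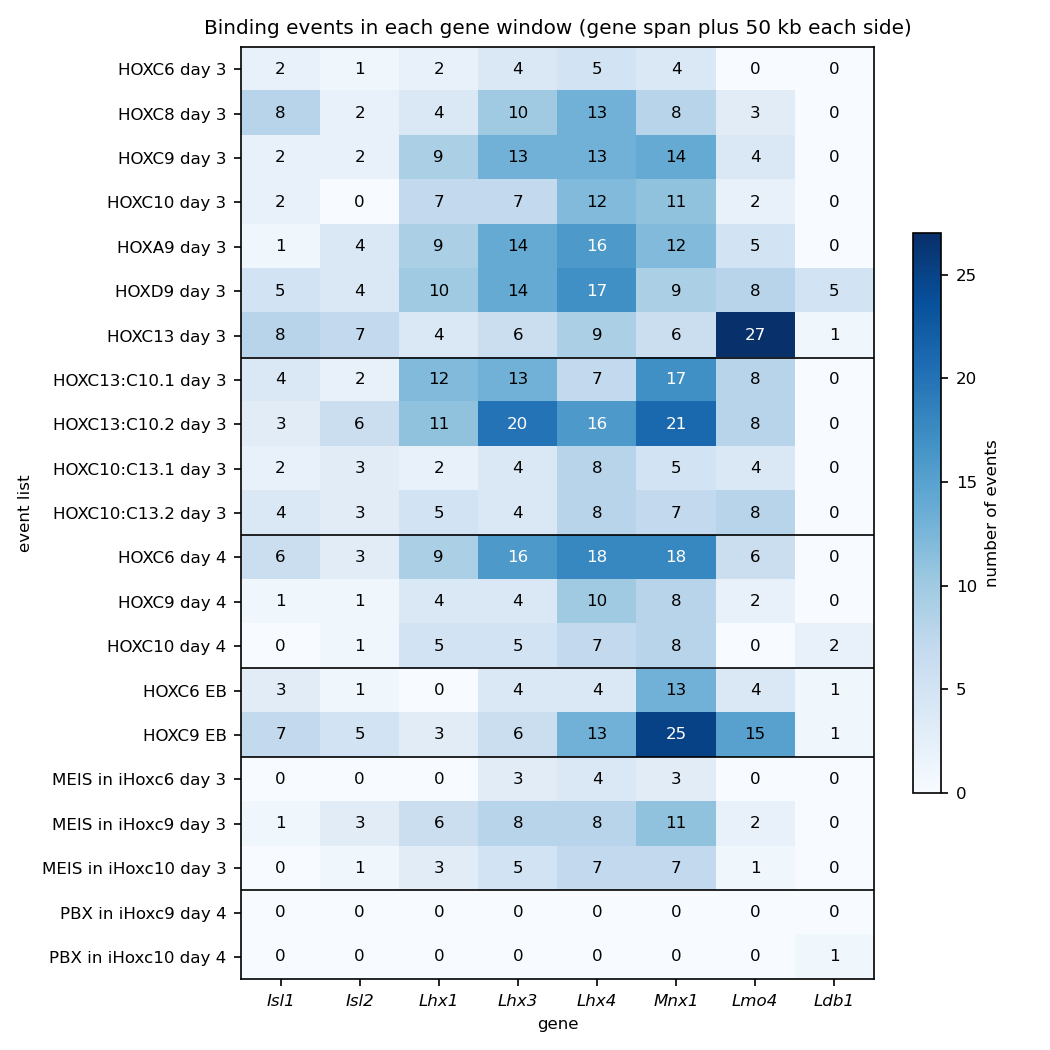
Each cell gives the number of binding events of 1 list (rows, in blocks of full-length day 3, chimera, day 4, EB, MEIS and PBX lists) in the window of 1 gene (columns), with darker blue for more events. HOXC13 has 27 events at Lmo4, HOXC9 in EBs has 25 at Mnx1, and the Ldb1 column is mostly 0.

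Of the 21 lists, 18 had an event at 6 or more of the 8 genes, and most of these lists also had an event at most protein-coding genes. At day 3, HOXC6 and HOXC10 each had an event at 6 of the 8 genes, against 45.5% and 46.9% of all protein-coding genes. HOXC8, HOXC9 and HOXA9 had an event at 7 genes, against 65.8%, 70.4% and 76.5%, and HOXD9 and HOXC13 at all 8, against 77.6% and 84.3%. All 4 chimeras had an event at 7 genes, against 78.0% for HOXC13:C10.1, 76.8% for HOXC13:C10.2, 63.3% for HOXC10:C13.1 and 72.4% for HOXC10:C13.2. At day 4 the counts were 7 for HOXC6, 7 for HOXC9 and 6 for HOXC10, against 75.5%, 61.9% and 63.7%. In EBs they were 7 for HOXC6 and 8 for HOXC9, against 78.1% and 89.3%. MEIS had an event at 3 genes in iHoxc6 cells, 7 in iHoxc9 cells and 6 in iHoxc10 cells, against 24.1%, 46.6% and 36.8%. PBX had none in iHoxc9 cells and 1 gene in iHoxc10 cells, where 16.9% of genes had an event in the first and 86.9% had none in the second. With 8 genes, presence alone sets few of these counts apart from the background.

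The number of events separated the lists more than their presence. A uniform spread would place 0.0339% of a list in the 8 windows. HOXC10 at day 3 had 41 of 26873 events there, 0.153% (Wilson interval 0.112 to 0.207%) or 4.50 times the uniform share. HOXC6 had 18 of 17900 (2.97 times), HOXC8 48 of 44608 (3.18 times), HOXC9 57 of 74085 (2.27 times), HOXA9 61 of 62916 (2.86 times) and HOXD9 72 of 56400 (3.77 times). The lowest ratio of a full-length factor at day 3 was that of HOXC13, with 68 of 115879 events, 0.0587% (0.0463 to 0.0744%) or 1.73 times. The interval of HOXC13 overlapped those of HOXC6 and HOXC9 and lay below those of the other 4 day 3 factors. The highest ratio of all lists was that of MEIS in iHoxc10 cells, with 24 of 12982 events, 0.185% (0.124 to 0.275%) or 5.46 times.

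Isl1 (chr13:116298281-116309689, minus strand), a LIM homeodomain gene that motor neurons need in order to form, held most events for HOXC8 and HOXC13 and few for HOXC9, HOXC10 and HOXA9. HOXC8 and HOXC13 each had 8 events in its window, HOXD9 5, HOXC6, HOXC9 and HOXC10 2 each and HOXA9 1. Of its sites, 5 were used at day 3 only by the central factors HOXC6 or HOXC8 and 5 only by HOXC13. The 8 HOXC8 events placed Isl1 above 94.7% of protein-coding genes in that list, the 8 HOXC13 events above 78.2%, the 2 HOXC10 events above 76.0%, the 5 HOXD9 events above 73.6% and the 2 HOXC9 events above 50.4%. Its events were weak. The strongest HOXC9 event ranked 30304 of 74085 and the strongest HOXC10 event 20641 of 26873, and the best rank in a HOX list at day 3 was that of HOXC8 at Isl1 +31.8 kb, 5781 of 44608. The site of most lists, Isl1 +14.9 kb, was in 7 lists, among them HOXC8, HOXC10 and HOXD9 at day 3, and its events stood between the top 46.8% (HOXC6 at day 4) and the top 94.8% (HOXD9) of their lists.

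Isl2 (chr9:55538672-55546180, plus strand), the paralogue of Isl1, held most events for HOXC13. HOXC10 at day 3 had no event in the window, HOXC9 had 2, HOXA9 and HOXD9 4 each, HOXC6 1, HOXC8 2 and HOXC13 7, of which 6 had no event of another full-length factor within 100 bp. These counts placed Isl2 above 74.2% of protein-coding genes for HOXC13, 68.6% for HOXA9, 63.9% for HOXD9 and 50.4% for HOXC9, and above 54.5% for HOXC6 and 58.3% for HOXC8. The strongest central events fell at Isl2 +46.1 kb, where HOXC8 ranked 2414 of 44608 and HOXC6 2428 of 17900. HOXC13 ranked 11824 of 115879 at Isl2 -28.5 kb, the site of the strongest HOXC9 event too, which ranked 54542 of 74085. As percent of the list, these were the top 5.41% for HOXC8, the top 13.6% for HOXC6 and the top 73.6% for HOXC9. Isl2 +43.4 kb, in 7 lists, carried HOXC9, HOXA9 and HOXD9 at day 3 and MEIS in iHoxc9 cells (top 50.2%).

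Lhx1 (chr11:84518284-84525535, minus strand) held more events in the lists of HOX9 factors and HOXC10 than in those of central factors. These lists differ in length, and that of HOXC6 is the shortest of them. HOXD9 had 10 events in its window, HOXC9 and HOXA9 9 each, HOXC10 7, HOXC8 and HOXC13 4 each and HOXC6 2. The 7 HOXC10 events were more than at 96.3% of protein-coding genes and the 9 HOXC9 events more than at 91.6%. The counts placed Lhx1 above 93.2% of genes for HOXD9, 91.8% for HOXA9, 82.6% for HOXC8, 79.2% for HOXC6 and 53.6% for HOXC13. HOXC9 was strongest at Lhx1 -6.2 kb, with rank 3657 of 74085 at day 3 and 1376 of 44024 at day 4. At that site HOXA9 stood in the top 6.67% of its list, HOXD9 in the top 29.9%, HOXC10 in the top 40.1% and HOXC8 in the top 99.6%, at the edge of its list. HOXC6 was not listed there at day 3. At Lhx1 -16.5 kb, in 14 lists, the order differed: HOXC10 stood in the top 9.6%, HOXC9 in the top 16.7%, HOXD9 and HOXA9 in the top 26.5% and 28.5%, and HOXC13 in the top 58.2%. Another place, Lhx1 -43.0 kb, carried the strongest Lhx1 events of HOXC6 (rank 15959 of 17900), HOXC8 (4780 of 44608), HOXA9 (4173 of 62916) and HOXD9 (8556 of 56400), so that the strongest site was not the same for all factors.

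For 6 of the 7 full-length factors at day 3 the strongest event of the 8 genes was at Lhx3 (chr2:26200212-26208289, minus strand), whose protein joins ISL1 in the motor neuron complex. The strongest Lhx3 event ranked 132 of 56400 for HOXD9, 184 of 44608 for HOXC8, 226 of 62916 for HOXA9, 376 of 26873 for HOXC10, 412 of 17900 for HOXC6 and 2894 of 74085 for HOXC9, but 17230 of 115879 for HOXC13. These events fell at different places. At Lhx3 +17.7 kb HOXC8 stood highest, in the top 0.412% of its list, followed by HOXC10 in the top 2.17% and HOXC6 in the top 2.30%, with 4.8% for HOXD9, 7.4% for HOXA9, 8.5% for HOXC9 and 88.7% for HOXC13. By rank number HOXC6 (412) came before HOXC10 (584). At Lhx3 +32.9 kb the order was another, with HOXD9 in the top 0.234%, HOXA9 in the top 0.359%, HOXC10 in the top 1.40%, HOXC9 in the top 3.91%, HOXC8 in the top 17.2% and HOXC6 in the top 17.4%, and no HOXC13 event. By rank number HOXC6 (3116) came next after HOXC9 (2894) there, and before HOXC8. In estimated reads per M reads sequenced (RPM), HOXC8 had 32.3 at +17.7 kb (95% Poisson interval 30.6 to 34.1) and 4.73 at +32.9 kb (4.09 to 5.45), while HOXA9 had 5.99 (5.33 to 6.71) and 22.9 (21.6 to 24.3). Between them, Lhx3 +25.6 kb was in 15 lists, with HOXA9 in the top 4.6%, HOXC10 in the top 4.8%, HOXC8 in the top 7.6% and HOXC9 in the top 8.8%. HOXC6 at day 3 was near the end of its list there, in the top 98.1%. These 3 sites lie downstream of Lhx3, whose own span carried 2 sites in coding exons, 1 near the start and none in introns.

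Lhx4 (chr1:155698031-155751684, minus strand), the paralogue of Lhx3, had the largest number of sites. HOXD9 had 17 events, HOXA9 16, HOXC8 and HOXC9 13 each, HOXC10 12, HOXC13 9 and HOXC6 5. The 12 HOXC10 events were more than at 98.5% of protein-coding genes. Of its day 3 sites, 12 combined central and posterior factors, the most of any member, 10 were of HOX9 or HOXC10 factors only and 7 of HOXC13 only. Beside its start, Lhx4 +0.9 kb was in 14 lists with all 3 MEIS lists, and 6 full-length factors stood there between the top 18.6% (HOXC8) and the top 66.0% (HOXC6). The site in most lists, Lhx4 +96.6 kb, was in 16, with HOXA9 in the top 10.6%, HOXD9 in the top 12.4%, HOXC9 in the top 17.1% and HOXC10 in the top 23.1%. HOXC8 and HOXC6 were lower there, at 44.8% and 73.6%. The HOXC13 event that stood highest, rank 4389 of 115879, lay at Lhx4 +102.8 kb, elsewhere than any of these.

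Mnx1 (chr5:29473034-29478470, minus strand) had several of its most used sites within 10 kb of its start. HOXC9 had 14 events, HOXA9 12, HOXC10 11, HOXD9 9, HOXC8 8, HOXC13 6 and HOXC6 4. The 11 HOXC10 events were more than at 98.3% of genes. HOXC10 was strongest at Mnx1 -7.7 kb, with rank 1131 of 26873. At the nearby Mnx1 -8.7 kb site, HOXC10 stood in the top 5.9% at day 3, HOXC9 in the top 21.7%, HOXC8 in the top 50.2%, HOXD9 in the top 72.5%, HOXC6 in the top 92.5% and HOXA9 in the top 96.7%. HOXC10 thus stood higher in its list than the HOX9 paralogues in theirs at this site, although HOXA9 and HOXD9 stood above HOXC10 at Lhx3 +32.9 kb. At Mnx1 -6.8 kb, HOXC10 was again highest of the 6 full-length factors present (top 6.5%), followed by HOXA9 (21.9%), HOXC9 (22.8%), HOXC8 (33.0%), HOXC6 (48.1%) and HOXD9 (62.0%). The intron of Mnx1 held 1 site, +2.7 kb, in 15 lists, and it was the strongest Mnx1 site of HOXC8, HOXC9, HOXA9 and HOXD9 at day 3.

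Lmo4 (chr3:144188530-144205220, minus strand) had more events of HOXC13 than of any other list. HOXC13 had 27 events in its window, more than at 97.3% of protein-coding genes and 27 of its 68 events at the 8 genes. HOXD9 had 8, HOXA9 5, HOXC9 4, HOXC8 3, HOXC10 2 and HOXC6 none. Of the 27 HOXC13 events, 19 had no event of another full-length factor within 100 bp, 70.4% (51.5 to 84.1%), which was near the 73.6% of all HOXC13 events. They ran through the window from -36.5 to +61.0 kb. The strongest, Lmo4 +32.0 kb, ranked 1709 of 115879 with 18.0 RPM, and no other full-length factor was listed there at day 3. Lmo4 +47.9 kb (rank 5608) and +43.3 kb (rank 5689) followed. The median HOXC13 event at Lmo4 stood in the top 39.0% of the list, against 71.2% at Isl1 and 73.5% at Isl2. Lmo4 -5.7 kb was the place of the other factors, with HOXA9 in the top 7.6%, HOXC9 in the top 8.3%, HOXD9 in the top 15.3%, HOXC8 in the top 29.8% and HOXC10 in the top 55.1%, and it held no HOXC13 event.

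Ldb1 (chr19:46031570-46045214, minus strand) had the fewest events, 11 over all lists. HOXD9 had 5 events, HOXC10 at day 4 had 2, and HOXC13, EB HOXC6, EB HOXC9 and PBX in iHoxc10 cells had 1 each. HOXC6, HOXC8, HOXC9, HOXC10 and HOXA9 at day 3 had none. The site in most lists, Ldb1 -30.8 kb, lay 14 bp from the start of Nolc1, not of Ldb1. It was in 3 lists, PBX in iHoxc10 cells (top 21.3%), HOXC10 at day 4 (24.1%) and HOXD9 (89.0%).

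**Figure D3:**
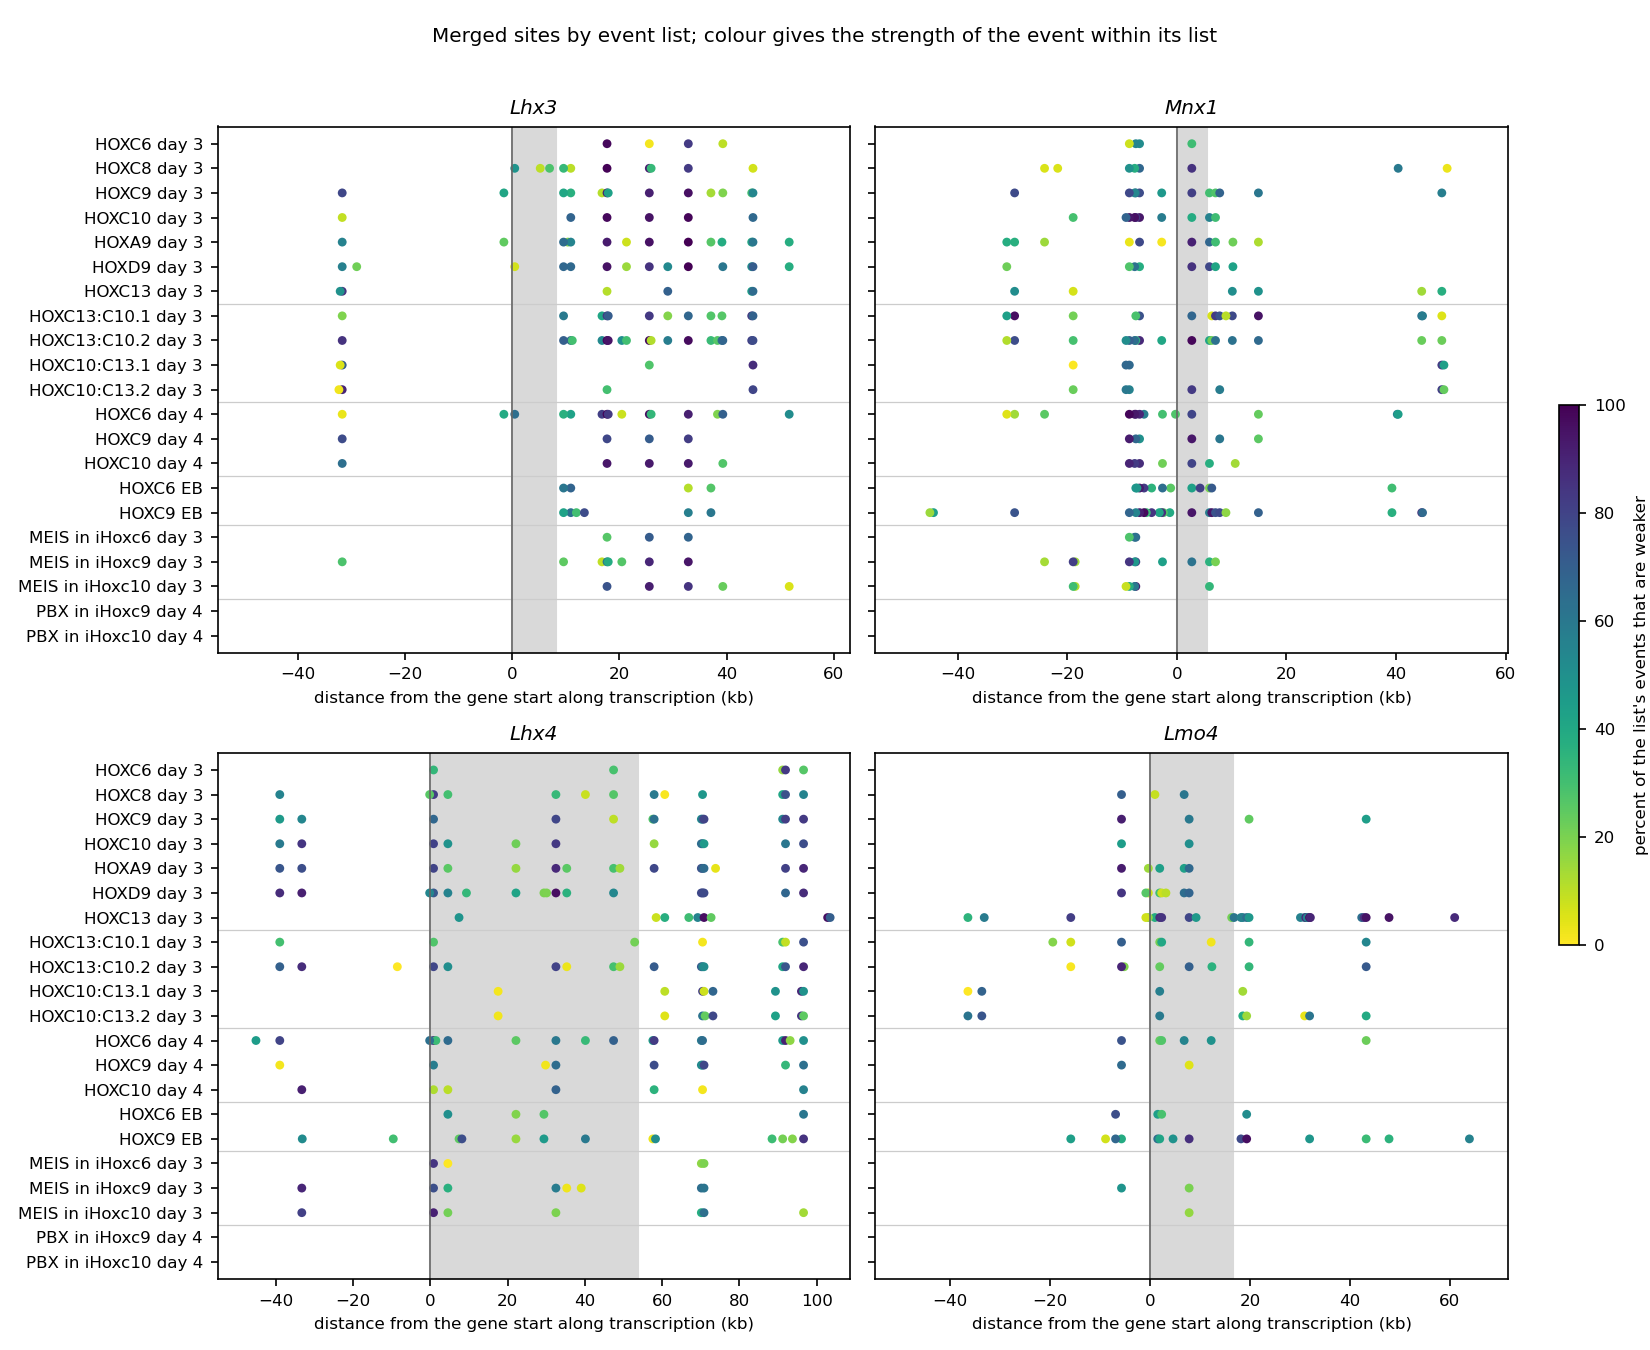
Points mark merged sites at Lhx3, Mnx1, Lhx4 and Lmo4 by distance from the gene start in kb (x axis, grey for the gene span) and by event list (y axis), and darker points stand higher in their list. Columns of points at +17.7, +25.6 and +32.9 kb of Lhx3 run through most lists, and the HOXC13 row at Lmo4 holds points from -36.5 to +61.0 kb that few other rows share.

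The central and posterior factors, and HOXC9 with HOXC10, were compared next by whether an event of 1 list had an event of the other within 100 bp. In the 8 windows, 35 of 57 HOXC9 events had a HOXC10 event, 61.4% (48.4 to 72.9%), against 30.4% of the whole HOXC9 list. In reverse, 34 of 41 HOXC10 events had a HOXC9 event, 82.9% (68.7 to 91.5%), against 81.3%. The HOXC10 share was near that of its list over full lists, but in the top 10000 events of each list it was 4 of 21, 19.0%, with an interval that lay below the 43.3% of the genome. HOXC9 events had a HOXC10 partner more often here than in the whole HOXC9 list. HOXC10 events were also denser in these windows than HOXC9 events, at 4.50 and 2.27 times the uniform share. Such a share rises with the density of the partner list, and whether the excess goes beyond that density was not tested. HOXC6 had a HOXC9 event at 15 of 18 events, 83.3% (60.8 to 94.2%), against 69.8%, and HOXC9 had a HOXC6 event at 15 of 57, 26.3% (16.6 to 39.0%), against 17.3%. With both lists held to the same length, HOXC9 with HOXC10 rose to 90.9% (72.2 to 97.5%), against 51.0% in the genome. HOXC10 with HOXC9 fell to 48.8% (34.3 to 63.5%), against 48.7%. HOXC6 with HOXC9 fell to 50% (29.0 to 71.0%), against 35.3%, and HOXC9 with HOXC6 rose to 52.9% (31.0 to 73.8%), against 37.0%. None of the 18 HOXC6 events was without another full-length factor, against 4.64% of its list, a share that 18 events cannot tell from 0. Of the 68 HOXC13 events, 43 were without one, 63.2% (51.4 to 73.7%), against 73.6% of its list.

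By member, the HOXC9 events with a HOXC10 partner were 10 of 14 at Mnx1, 10 of 13 at Lhx4, 6 of 13 at Lhx3, 7 of 9 at Lhx1, 2 of 4 at Lmo4 and none of the 2 at Isl1 and the 2 at Isl2. Sorted by the factors present at day 3, 43 of 157 sites, 27.4%, held only HOX9 or HOXC10 factors, against 25.3% in the genome. Central with posterior factors were at 35 sites (22.3% against 15.6%), HOXC13 alone at 42 (26.8% against 42.1%), HOXC13 with HOX9 or HOXC10 at 21 (13.4% against 10.0%) and central factors alone at 15 (9.55% against 5.32%). Of the 42 sites of HOXC13 alone, 19 were at Lmo4. Of the 15 sites of central factors alone, 5 were at Isl1, 3 at Lhx3, 3 at Mnx1, 2 at Isl2 and 1 each at Lhx1 and Lhx4.

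**Figure D4:**
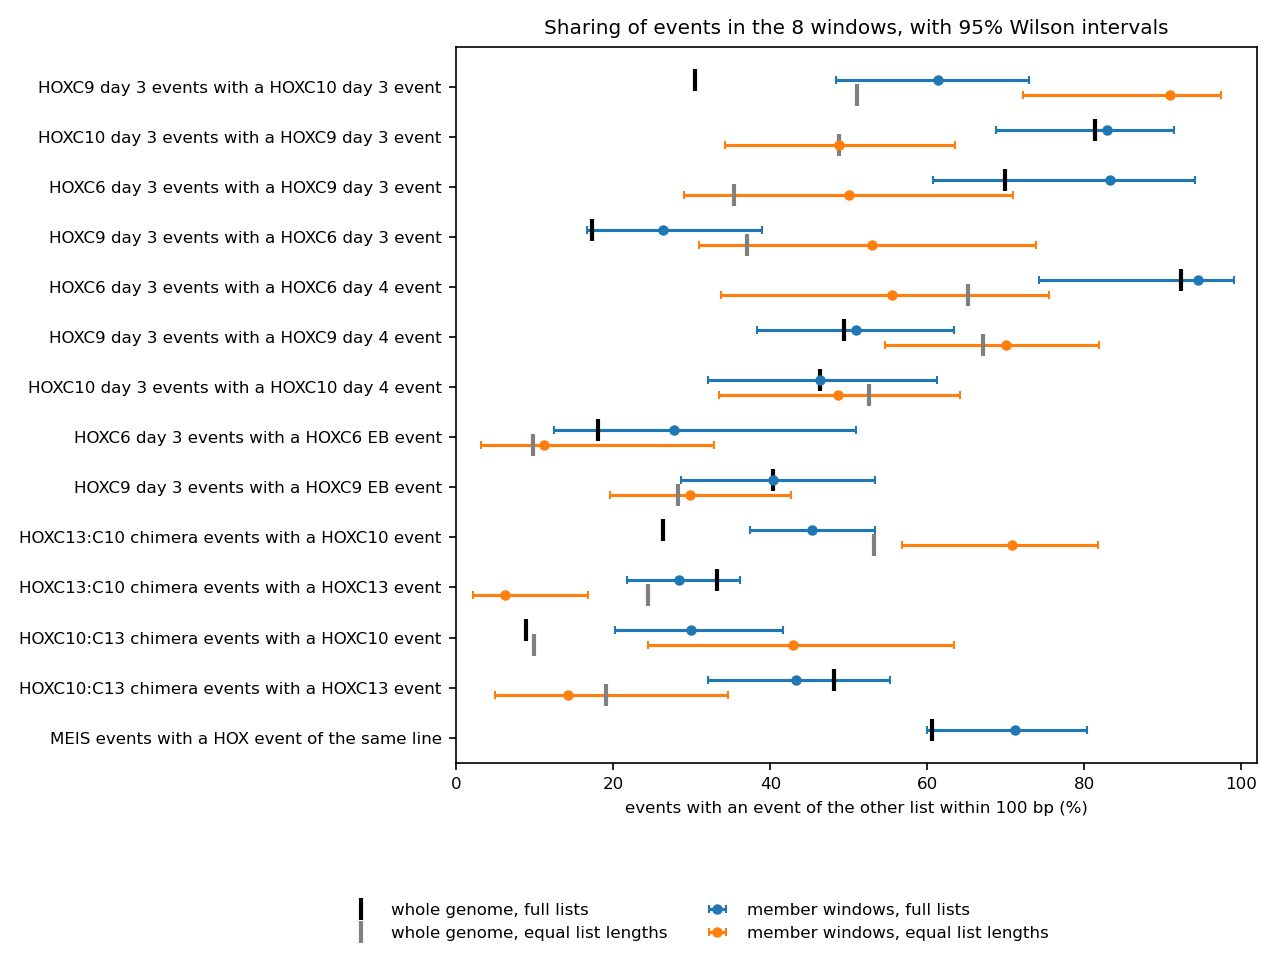
Points give the percent of events in the 8 windows with an event of the other list within 100 bp, with 95% Wilson intervals (bars, counting error only), for full lists (blue) and lists of equal length (orange), and upright ticks give the same share over the whole genome (black and grey). HOXC9 with HOXC10, and both chimera pairs with HOXC10, lie above their genome ticks in both settings.

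Between day 3 and day 4, the events at these genes rose in number for HOXC6 and fell for HOXC9 and HOXC10. HOXC6 went from 18 to 76 events in the windows, HOXC9 from 57 to 30 and HOXC10 from 41 to 28, and the HOXC9 and HOXC10 lists were shorter at day 4 too, with 44024 and 22027 events. As a share of the list, HOXC6 events in the windows were 0.101% at day 3 and 0.110% at day 4. Of the HOXC6 day 3 events, 17 of 18, 94.4% (74.2 to 99.0%), had a day 4 event, against 92.4% of the list. For HOXC9 it was 29 of 57, 50.9% (38.3 to 63.4%), against 49.4%, and for HOXC10 19 of 41, 46.3% (32.1 to 61.3%), against 46.4%. These shares were near those of the whole lists. The HOXC6 list was 17900 events long at day 3 and 69297 at day 4, so a position as percent of the list rises for shared events when weaker events are added. As percent of the list all 17 shared HOXC6 events stood higher at day 4, where 91.5% of shared HOXC6 events in the genome did so. By rank number, with each event paired to the nearest day 4 event within 100 bp, 5 of the 17 did, 29.4% (13.3 to 53.1%), against 29.5% in the genome, and the median rank was 12689 at day 3 and 13197 at day 4. Neither measure set the HOXC6 events of these genes apart from the list. With the day 4 list held to the length of the day 3 list, 10 of 18 HOXC6 events were shared, 55.6% (33.7 to 75.4%), against 65.2% in the genome. Of the shared HOXC9 events 8 of 29 stood higher at day 4 as percent of the list, against 32.5% in the genome, and 16 by rank number, against 61.7%. Of the 19 shared HOXC10 events 5 did as percent, against 39.9%, and 7 by rank number, against 49.9%.

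The 5 HOXC6 events with a better rank number at day 4 lay at Mnx1 -8.7 kb, Lhx3 +25.6 kb, Lhx4 +0.9 kb, Mnx1 -7.5 kb and Lhx3 +17.7 kb. At Mnx1 -8.7 kb, HOXC6 went from rank 16553, near the end of the day 3 list, to rank 1041 at day 4, and from 1.11 RPM to 29.5 RPM (95% Poisson interval 27.6 to 31.4). At the same site HOXC9 went from rank 16050 to 3289 and HOXC10 from 1585 to 2181. At Lhx3 +25.6 kb, HOXC6 went from rank 17562 to 2640, and from 0.950 RPM (0.651 to 1.34) to 17.4 RPM (16.0 to 18.9). HOXC9 went there from rank 6556 to 12586 and HOXC10 from 1288 to 1487. At Isl2 +46.1 kb, the strongest HOXC6 event of Isl2, the rank went from 2428 to 2948. Lhx3 +17.7 kb remained the strongest HOXC6 event of the 8 genes at day 4, with rank 287 of 69297. At Lhx1 -6.2 kb, HOXC6 was listed at day 4 only (top 69.5%). The HOXC6 libraries had signal fractions of 0.07 and 0.08 at day 3 but 0.304 and 0.311 at day 4. HOXC6 also went from 12.6 to 54.3 RPM at Lhx3 +17.7 kb, so RPM values of the 2 days are not on 1 scale. The control library at day 4 was shallower than at day 3. The part of enrichment and of the control in these values was not tested.

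**Figure D5:**
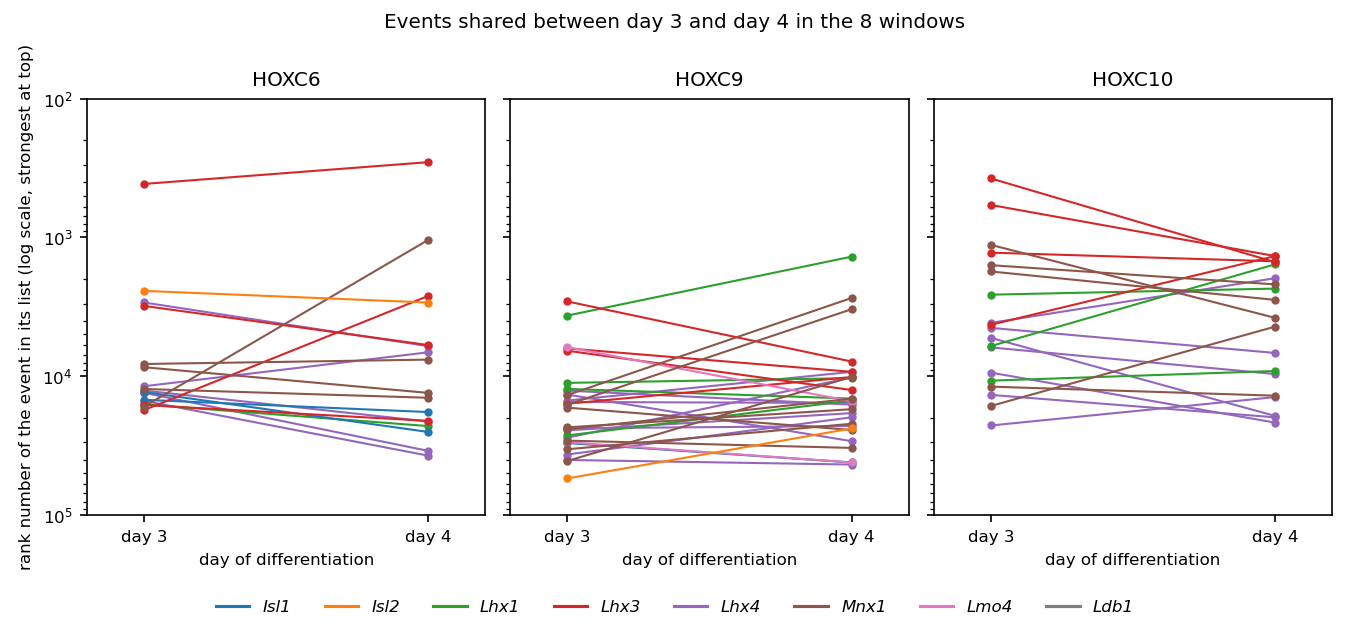
Lines join the rank number of an event in its list at day 3 and at day 4 (y axis, log scale, strongest at the top), for events of HOXC6, HOXC9 and HOXC10 shared between the days in the 8 windows, coloured by gene. Of the HOXC6 lines 5 of 17 go up, of the HOXC9 lines 16 of 29 and of the HOXC10 lines 7 of 19, and the steepest HOXC6 line is Mnx1 -8.7 kb, from 16553 to 1041.

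In EBs without RA and SAG in their labels, Mnx1 took more HOXC9 and HOXC6 events than any other of the 8 genes. HOXC9 had 25 events at Mnx1 and HOXC6 13, more than at 95.9% and 97.8% of protein-coding genes, in lists of 128388 and 44751 events. At day 3 the counts were 14 and 4, more than at 95.7% and 94.3% of genes, in lists of 74085 and 17900, so that the standing of Mnx1 among genes differed little between the stages. Lmo4 had 15 HOXC9 events in EBs and 4 at day 3. At Lhx3, HOXC9 had 6 in EBs and 13 at day 3, and at Lhx1 3 and 9. The strongest HOXC9 event in EBs was at Mnx1 -6.0 kb, rank 3054 of 128388, a site with no full-length factor at day 3. HOXC6 was strongest in EBs at Mnx1 -6.8 kb, rank 3259 of 44751, where HOXC6 at day 3 stood in the top 48.1%. Lhx3 +17.7 kb and +25.6 kb, among the strongest sites at day 3, were in neither EB list, and at Lhx3 +32.9 kb the EB events stood in the top 42.8% (HOXC9) and the top 88.8% (HOXC6). Of the HOXC9 day 3 events, 23 of 57, 40.4% (28.6 to 53.3%), had an EB event, against 40.4% of the list, and of the HOXC6 day 3 events 5 of 18, 27.8% (12.5 to 50.9%), against 18.1%. Both intervals over the 8 genes held the share of the list. At Mnx1 alone, 12 of 14 HOXC9 events had an EB event, 85.7% (60.1 to 96.0%), an interval above the share of the list. At the other genes it was 3 of 4 at Lmo4, 4 of 13 at Lhx3, 3 of 13 at Lhx4, 23.1% (8.18 to 50.3%), and 1 of 9 at Lhx1, 11.1% (1.99 to 43.5%). Neither of the 2 HOXC9 events at Isl1 nor the 2 at Isl2 had one.

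Over the 8 genes together, the chimeras with the homeodomain of HOXC10 placed more events than those with the homeodomain of HOXC13. HOXC13:C10.1 had 63 events and HOXC13:C10.2 85, and HOXC10:C13.1 had 28 and HOXC10:C13.2 39, in lists of 99311, 87315, 61482 and 86293 events. As shares of their lists these were 0.0634% (0.0496 to 0.0811%), 0.0973% (0.0787 to 0.120%), 0.0455% (0.0315 to 0.0658%) and 0.0452% (0.0331 to 0.0618%). Both HOXC10:C13 intervals lay below that of HOXC13:C10.2, but overlapped that of HOXC13:C10.1. At Lhx3 the chimeras with the HOXC10 homeodomain had 13 and 20 events and those with the HOXC13 homeodomain 4 and 4, at Mnx1 17 and 21 against 5 and 7, and at Lhx1 12 and 11 against 2 and 5. The chimeras were not ordered this way at the other genes. At Lhx4 they had 7 and 16 against 8 and 8, at Isl1 4 and 3 against 2 and 4, at Isl2 2 and 6 against 3 and 3, at Lmo4 8 and 8 against 4 and 8, where HOXC13 had 27, and at Ldb1 none. Of the 27 HOXC13 events at Lmo4, HOXC10:C13.2 shared 7, HOXC13:C10.1 5, HOXC13:C10.2 5 and HOXC10:C13.1 3.

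Each chimera was then set against its parents. HOXC13:C10.1 had a HOXC10 event at 26 of 63 events, 41.3% (30.0 to 53.6%), against 21.9% of its list, and a HOXC13 event at 22, 34.9% (24.3 to 47.2%), against 37.5%. HOXC13:C10.2 had a HOXC10 event at 41 of 85, 48.2% (37.9 to 58.7%), against 31.3%, and a HOXC13 event at 20, 23.5% (15.8 to 33.6%), against 28.5%. HOXC10:C13.1 had a HOXC10 event at 9 of 28, 32.1% (17.9 to 50.7%), where 89.8% of its list had none, and a HOXC13 event at 10, 35.7% (20.7 to 54.2%), against 49.5%. HOXC10:C13.2 had a HOXC10 event at 11 of 39, 28.2% (16.5 to 43.8%), against 7.89%, and a HOXC13 event at 19, 48.7% (33.9 to 63.8%), against 47.0%. All 4 chimeras thus shared more with HOXC10 at these genes than in their whole lists, with intervals above the genome share in each of the 4. HOXC10 events were themselves dense in these windows, at 4.50 times the uniform share, and HOXC13 events less so, at 1.73 times. The chimeras stood at 1.87, 2.87, 1.34 and 1.33 times, in the order above. Such a share rises with the density of the partner list, and whether the excess goes beyond that density was not tested. HOXC13 is the longer parent list. With the lists held to the same length, the HOXC10:C13 pair together had 21 events left. Of these, 42.9% (24.5 to 63.5%) had a HOXC10 event, against 9.85% in the genome, and 14.3% (4.98 to 34.6%) a HOXC13 event, against 19.0%. The order of the parents thus turned at these genes, with overlapping intervals, but not in the genome. HOXC13:C10.2 met 39 of the 41 HOXC10 events, 95.1% (83.9 to 98.7%), against 92.9% of all HOXC10 events, and HOXC13:C10.1 25, 61.0% (45.7 to 74.3%), against 73.7%. These 2 intervals did not overlap, and each held the share of the whole list.

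The chimeras also differed at single sites. At Lhx3 +17.7 kb, HOXC13:C10.2 stood in the top 1.18% and HOXC13:C10.1 in the top 15.8%, against 70.1% for HOXC10:C13.2, and HOXC10:C13.1 was not listed. At Lhx3 +32.9 kb both HOXC13:C10 chimeras were present, with HOXC13:C10.2 in the top 3.1% and HOXC13:C10.1 in the top 32.8%, and neither HOXC10:C13 chimera was. At Mnx1 -29.6 kb the order of the HOXC13:C10 pair was the opposite, with HOXC13:C10.1 in the top 3.67% (rank 3648 of 99311) and HOXC13:C10.2 in the top 23.1%, HOXC13 in the top 48.5% and no HOXC10 event. The strongest HOXC10:C13.2 event fell at Lhx3 -31.7 kb (top 10.6%), where HOXC13 stood in the top 14.9% and HOXC10 in the top 90.7%. The strongest HOXC10:C13.1 event, at Lhx4 +96.0 kb (top 10.7%), was at a site that HOXC10:C13.2 shared and no full-length factor did.

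MEIS, the cofactor that binds DNA beside Hox proteins, was found most often at Mnx1, Lhx3 and Lhx4. Of the 247 sites 40 had a MEIS event, 11 at Mnx1, 10 at Lhx3, 9 at Lhx4, 5 at Lhx1, 2 each at Isl2 and Lmo4, 1 at Isl1 and none at Ldb1. No genome share of sites with MEIS stands beside this count. The MEIS events came from V5-tagged lines. The HOX events set beside them came from Flag-tagged lines for HOXC6 and HOXC9, and mostly from Flag-tagged lines for HOXC10. MEIS and HOX were thus not measured in the same lines, apart from the V5 library in the HOXC10 list. In iHoxc6 cells 6 of 10 MEIS events had a HOXC6 event, 60.0% (31.3 to 83.2%), against 53.8% of the list. In iHoxc9 cells 27 of 39 had a HOXC9 event, 69.2% (53.6 to 81.4%), against 66.8%, and in iHoxc10 cells 19 of 24 had a HOXC10 event, 79.2% (59.5 to 90.8%), against 53.9%. Only the last interval lay above its genome share. All 10 MEIS events of iHoxc6 cells were also found in iHoxc9 and in iHoxc10 cells, within 100 bp, against 72.7% and 72.6% of the list, and the interval for 10 of 10 (72.2 to 100%) held both shares. The strongest MEIS events were at Lhx4 +0.9 kb in iHoxc6 cells (top 15.6%), Lhx3 +32.9 kb in iHoxc9 cells (top 5.5%) and Lhx3 +25.6 kb in iHoxc10 cells (top 8.3%). At Lhx3 +32.9 kb, MEIS stood in the top 31.9% in iHoxc6 cells, 5.5% in iHoxc9 cells and 15.0% in iHoxc10 cells, where HOXC6, HOXC9 and HOXC10 stood in the top 17.4%, 3.91% and 1.40%. Each MEIS list rests on 1 library, so differences between the lines have no replicate check. PBX lists were short, with 1165 and 848 events, and the single PBX event fell at Ldb1 -30.8 kb.

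TTTAT near HOXC9 events, TAAT near HOXC6 events and TTTAC near HOXC13 events were about as frequent as in the whole lists. Within 50 bp, TAAT was less frequent than in the list for HOXC8, HOXC10 and HOXC10:C13.2, but within 25 and 100 bp their intervals held the list share. Many motifs and lists were read, so some intervals would miss the list share by counting error alone. The MEIS hexamer was more frequent within 50 bp of the events of HOXC9 on both days, of HOXA9 and of HOXC10:C13.1. Of these, only the HOXC9 intervals stayed above the list share within both 25 and 100 bp. HOXA9 held its list share within 25 bp, and HOXC10:C13.1 within 25 and 100 bp. TTTAT lay within 50 bp of 34 of 57 HOXC9 events, 59.6% (46.7 to 71.4%), against 62.4% of the list, and TAAT within 50 bp of 13 of 18 HOXC6 events, 72.2% (49.1 to 87.5%), against 71.1%. TTTAC lay near 28 of 68 HOXC13 events, 41.2% (30.3 to 53.0%), against 42.8%, and near 13 of the 27 at Lmo4. At day 3, TAAT lay near 64.6% of HOXC8 events (50.4 to 76.6%), against 77.2%, and 58.5% of HOXC10 events (43.4 to 72.2%), against 72.7%. For HOXC10:C13.2 it was 76.9% (61.7 to 87.4%), against 90.1%. TGATTTAT lay near 3 of 30 HOXC6 events in EBs, 10% (3.46 to 25.6%), against 2.43%. In the other HOX lists the intervals of these motifs held the share of the list. HOXC9 events with TTTAT were 11 of 14 at Mnx1, 7 of 9 at Lhx1, 7 of 13 at Lhx3, 6 of 13 at Lhx4 and 1 of 4 at Lmo4. The MEIS hexamer TGACAG lay near 16 of the 57 HOXC9 events, 28.1% (18.1 to 40.8%), against 11.6% of the list, and near 9 of 41 HOXC10 events, 22.0% (12.0 to 36.7%), against 12.2%. For HOXA9 it was 15 of 61, 24.6% (15.5 to 36.7%), against 12.6%, and for HOXC9 at day 4 9 of 30, 30% (16.7 to 47.9%), against 11.8%. The intervals of HOXC9 on both days and of HOXA9 lay above the share of their lists, that of HOXC10 reached down to it, and HOXD9, with 11 of 72, 15.3% (8.75 to 25.3%), stood near the 12.6% of its list. The HOXC9 lists share events, with a day 4 event at 29 of 57 day 3 events. HOXC10:C13.1, with 4 of 28, 14.3% (5.70 to 31.5%), against 4.97%, lay above its list too. For HOXC10:C13.2 it was 3 of 39, 7.69% (2.65 to 20.3%), against 4.86%. A match describes the letters in the window and no more.

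Other LIM genes and their partners were less dense in sites. Their list held Lhx2, Lhx5, Lhx6, Lhx8, Lhx9, Lmx1a, Lmx1b, Lmo1, Lmo2, Lmo3, Ldb2, Ssbp2, Ssbp3, Ssbp4 and Rlim, and the median gene stood above 62.5% of protein-coding genes in density, against 96.4% for the 8 members. Lmo2 (24.2 sites per 100 kb) and Lmx1b (23.4) were the densest of the 15, and Lhx8, Lhx9 and Rlim lay under the genome median. HOXC9 had a median of 5 events a gene in this list and 6.5 among the members, against 1 over all protein-coding genes. HOXC10 had 2 and 4.5, against 0. These event counts are not scaled to window length. The windows of Ldb2, Ssbp2 and Lmo3 were 428, 343 and 319 kb long, and the longest among the members, that of Lhx4, 154 kb. Of the motor neuron transmitter genes, Slc18a3 (25.4 per 100 kb) and Chat (22.8) stood above 94.9% and 91.8% of genes, and their windows overlap because Slc18a3 lies inside Chat, whereas Slc5a7 had 12.8 per 100 kb.

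Across the 21 lists, the gene on another chromosome whose event counts followed a member most closely was Megf11 for Mnx1 (Pearson r = 0.984), Inpp5a for Lhx3 (r = 0.973), Ppfibp2 for Lmo4 (r = 0.969), Tmem117 for Lhx4 (r = 0.962), Hmx3 for Lhx1 (r = 0.950), Letm1 for Isl2 (r = 0.935), Gulp1 for Isl1 (r = 0.916) and Smarcc2 for Ldb1 (r = 0.810). Each r is over 21 lists that differ in length, on log2(events + 1), and was the highest among the genes on other chromosomes, of 15854 with at least 20 events. The median r over those genes ran from 0.185 for Ldb1 to 0.692 for Lmo4, since all counts follow list length in part.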

How the data were processed

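ChIP-seq had been run on 42 libraries in 23 groups, of which 40 libraries of 21 groups stand in event lists. Per the study's methods, the authors aligned reads to mm10 with Bowtie 1.0.1 and called events with MultiGPS at a q-value under 0.001, pooling the replicates of a group. Picard 2.8.2 and edgeR 3.22.5 are named in the submitters' processing notes. The deposited lists give an estimated count of ChIP reads and of scaled control reads per event, a log2 fold over control and a log2 q-value. The authors' comparisons between conditions (fold changes and p-values) were not used, nor were the deposited score columns of peak files. Counts of reads assigned to an event come from a mixture model and are not whole, and MultiGPS replicate values were not given, so no count model was run.

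Events in each gene span of the GENCODE annotation plus 50 kb on each side were taken in the 8 windows and in those of 21911 protein-coding genes, ranked within a list by estimated ChIP read count, and merged into sites when within 100 bp of a neighbour. Events of 2 lists were shared when within 100 bp. RPM values divide the estimated count by the reads of the pooled libraries, in units of 1e6. Shares carry 95% Wilson intervals and RPM values carry Poisson intervals, both for counting error only, and reads without molecular identifiers are not independent molecules. Motifs were searched on both strands within 50 bp. The scripts were checked on simulated data and used Python 3.11.15, numpy 2.4.6, pandas 2.3.3, scipy 1.17.1 and matplotlib 3.10.9.

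Named sites were, for each gene, that in the most lists, and, for each list, the strongest event of the 8 genes. Sites in all 7 full-length day 3 lists were named too. The strongest site of a gene in a list, where it is given, and a few sites set beside these were chosen after their values were seen. The members and gene lists were chosen with earlier results of these data known. Alternatives were windows of 10 and 100 kb, distances of 50 and 200 bp, a log2 q-value of at most -33, the top 10000 events of each list, equal list lengths, events nearest to a member start, motif windows of 25 and 100 bp, ranks by q-value and, added after seeing the data, rank number in place of percent of the list. An input library and a library of anti-Flag in iHoxc10 (V5) cells had no list of their own and entered no comparison.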

Additional observations from a re-analysis of the deposited data

How the results depend on the processing

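Of 137 values recomputed under the alternatives, 96 moved by less than their counting interval or by less than 1.5 times, and 41 moved more. The merged sites numbered 121 with 10 kb windows, 372 with 100 kb, 138 at a log2 q-value of at most -33 and 50 in the top 10000 events. With equal list lengths, HOXC9 with HOXC10 was 90.9%, HOXC10 with HOXC9 48.8%, HOXC6 with HOXC9 50%, HOXC9 with HOXC6 52.9%, HOXC6 at day 3 with day 4 55.6%, HOXC9 at day 3 with day 4 70%, HOXC6 with EBs 11.1%, HOXC13:C10 with HOXC10 70.8% and with HOXC13 6.25%, and HOXC10:C13 with HOXC10 42.9% and with HOXC13 14.3%. In the top 10000 events, with 3 to 40 events left, these were HOXC10 with HOXC9 19.0% (against 43.3% in the genome), HOXC6 with HOXC9 33.3%, HOXC9 with HOXC6 40%, HOXC9 with EBs 0%, HOXC13:C10 with HOXC10 53.3% and with HOXC13 0%, HOXC10:C13 with HOXC13 0%, MEIS with HOX 40% and HOXC9 with TTTAT 40%. At the stricter q-value, HOXC9 with HOXC6 was 8.11%, HOXC6 with day 4 100%, HOXC6 with EBs 0%, HOXC13:C10 with HOXC13 14.1%, HOXC10:C13 with HOXC13 25% and MEIS with HOX 81.0%. Windows of 100 kb gave 47.4% for HOXC9 with HOXC10 and 36.8% for HOXC13:C10 with HOXC10, and windows of 10 kb gave 57.1% for HOXC9 with EBs, 83.3% for MEIS with HOX and 28.0% of gene and list pairs with an event in the top 10000, against 39.3%. HOXC6 with day 4 was 100% for events nearest to a member start, MEIS with HOX was 50.7% at 50 bp, and HOXC9 with TTTAT was 40.4% within 25 bp and 71.9% within 100 bp. With rank number in place of percent of the list, chosen after seeing the data, the shared events that stood higher at day 4 went from 100% to 29.4% for HOXC6 and from 27.6% to 55.2% for HOXC9. Equal lengths and stricter cuts keep fewer events by construction, and other causes were not tested. No paired analysis was possible because the lists pool their replicates and hold no value per replicate, and leaving out a replicate could not be run for the same reason. Depth limits the lists with few reads or low signal, among them HOXC10 at day 3 and PBX, where a missing event is not shown to be absent.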

Other observations

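Among the 15 LIM genes and partners outside the 8, Lmo3, Ldb2 and Ssbp2 had the most HOXC13 events at day 3, and also the longest windows. The median of the 15 was 7 HOXC13 events, against 3 over all protein-coding genes. Lmo3, a LIM-only paralogue of Lmo4, had 33 HOXC13 events at day 3 in a window of 319 kb, beside 9 of HOXC9, 1 of HOXC10 and 1 of HOXC6. Ldb2, the paralogue of Ldb1, had 76 sites in a window of 428 kb, 17.8 per 100 kb, and 22 HOXC13 and 16 HOXC9 events. Ldb1 had 8 sites in a window of 114 kb, 7.04 per 100 kb. Ssbp3, which encodes a partner of LDB proteins, had a window of 239 kb with 17 MEIS events over the 3 lists, 8 HOXC10 events and events in all 21 lists. Lmx1b, a LIM homeodomain gene, had 12 HOXC9 and 8 HOXC10 events in a window of 180 kb, and Lhx6 had neither in 123 kb.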
